A study of Mus musculus with 6 samples.

Results

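The cluster of miR-143 and miR-145a was followed through its 4 mature miRNAs, mmu-miR-143-3p, mmu-miR-143-5p, mmu-miR-145a-5p and mmu-miR-145a-3p (named below without the species prefix), which were found by name among the 1881 mouse miRNAs on the array. The 2 guide arms, miR-143-3p and miR-145a-5p, gave more signal in type H endothelial cells (ECs) than in type L ECs, by 2.15-fold and 2.31-fold after quantile normalization and by 1.76-fold for each without normalization. MiR-143-3p was well above background throughout, whereas miR-145a-5p was close to its detection limit in type L ECs, so its fold is the less certain. The 2 passenger arms, miR-143-5p and miR-145a-3p, were detected on 0 of the 6 arrays. The deposited total for miR-145a-5p did not show this difference, because on 2 type L arrays it held the total of miR-143-3p as well.

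Type H ECs are the CD31hi Emcnhi endothelial cells of bone and type L ECs the CD31lo Emcnlo cells, Emcn being the endothelial surface protein endomucin. Both came from the bone marrow of wild type C57BL/6 mice aged 1 month, were sorted by flow cytometry and, per the labels, were cultured on fibronectin in endothelial growth medium before RNA extraction. The labels give the mice as male and the methods give them as female, and neither says how many animals went into a sample. There were 3 arrays of each cell type, 1 per sample, and the study used them to find miRNAs that differ between these ECs.

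In mammals miR-143 and miR-145 are cut from one primary transcript. They are best known from mural cells, the vascular smooth muscle cells and pericytes that wrap the endothelium, where serum response factor and myocardin drive the transcript and both miRNAs favour the contractile state, in part by lowering Klf4, Klf5 and Elk1. They are also made by fibroblasts and other mesenchymal cells. The guide arms are miR-143-3p and miR-145a-5p, which have different seeds and so different targets, and the passenger arms are normally scarce. In the mouse annotation (RefSeq, GRCm38.p6) the hairpins of Mir143 (63 bases) and Mir145a (70 bases) lie 1301 bases apart inside the span of Carmn, a long non-coding RNA gene also listed as Mir143hg. The like-named Mir145b lies outside it.

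The type H arrays shared 1 slide and the type L arrays another, with separate scans, so cell type and slide cannot be told apart. The type H arrays each detected 263 to 281 miRNAs and the type L arrays 295 to 309. Most miRNAs differed: of 311 tested with limma, 270 (86.8%) passed an adjusted p of 0.05, with 139 (44.7%) higher and 131 (42.1%) lower in type H ECs, so that 51.5% of the calls pointed up. After scaling on the 75th percentile, 98 (31.5%) were higher and 176 (56.6%) lower, and 35.8% of the calls pointed up. The median log2 difference over the 231 miRNAs detected on all 6 arrays was 0.11, -0.22 and -0.12 with quantile normalization, 75th percentile scaling and no normalization. The 10 features that the array marks as controls and that were detected on all arrays each gave more signal on the type H slide, with log2 differences of 0.21 to 1.47 without normalization. The 2 arms of miR-126a, the defining endothelial miRNA, were detected on 0 arrays.

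MiR-143-3p was detected on all 6 arrays. It is read through 2 probes of 15 and 16 bases with 15 spots each, and its signal here is the sum of the total signals of both, in intensity units. The summed signal was 29.1, 22.3 and 21.6 on type H arrays 1, 2 and 3, and 13.5, 13.4 and 14.3 on type L arrays 1, 2 and 3. The lowest type H value exceeded the highest type L value. How many of all miRNAs separate in this way was not counted, though 86.8% of the 311 tested passed the limma threshold. The type H arrays were spread more widely, with array 1 the brightest. Without normalization the mean was 24.3 ± 4.16 for type H ECs (SD, n = 3), against 13.7 ± 0.517 for type L ECs (SD, n = 3).

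**Figure D1:**
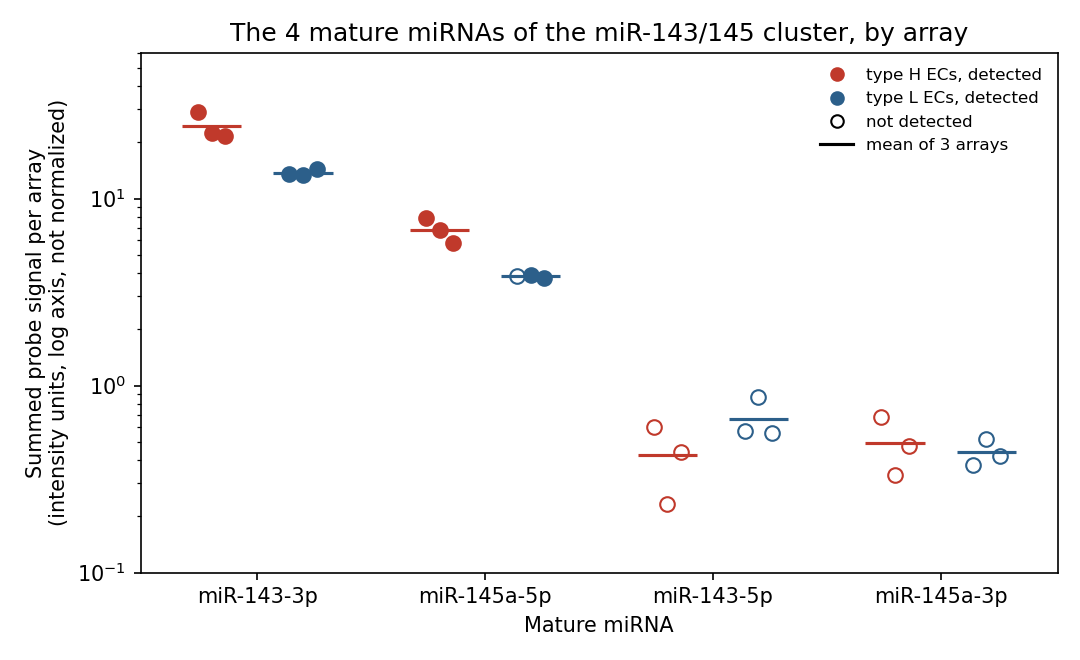
Summed probe signal of each mature miRNA of the cluster on each array, in intensity units without normalization on a log axis, with 1 point per array and a line at the mean of 3 arrays; open points were not detected. MiR-143-3p lies between 21.6 and 29.1 in type H ECs and between 13.4 and 14.3 in type L ECs, and both passenger arms lie under 1.

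After quantile normalization the log2 signal of miR-143-3p averaged 4.75 ± 0.045 for type H ECs (SD, n = 3) and 3.65 ± 0.039 for type L ECs (SD, n = 3). The resulting log2 difference of 1.10, or 2.15-fold, had a standard error of 0.037 and an adjusted p of 4.6e-06 (limma, Benjamini-Hochberg over the 311 miRNAs tested). It was larger than the spread between arrays of either cell type. In the exact two-sided permutation test p was 0.10, the smallest that 3 arrays against 3 allow. Of the 311 miRNAs, 26 had a larger rise. The size depended on the scaling, with a log2 difference of 0.71 (1.64-fold) after 75th percentile scaling and 0.81 (1.76-fold) without normalization, where 4 of the 10 control features differed by more than miR-143-3p. In sorted cells, more cells that make the miRNA and more of it in each cell cannot be told apart.

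Both probes of miR-143-3p moved together. The signal of the 15-base probe was 8.67 to 12.2 on the type H arrays and 5.31 to 5.94 on the type L arrays, and that of the 16-base probe was 12.9 to 16.9 and 7.89 to 8.39. The log2 differences of the 2 probes without normalization were 0.80 and 0.82. The ratio of the shorter to the longer probe was 0.656 to 0.722 on type H arrays and 0.661 to 0.713 on type L arrays. All 30 spots of the miRNA were flagged well above background on each array, none was saturated, and the coefficient of variation over the spots of a probe was 7.68 to 16.4%. The probe signals were 5.82 to 9.12 times the error that the scanner software gives for them, over all arrays.

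MiR-145a-5p was dimmer and was measured with less certainty. Its 2 probes, of 13 and 14 bases, gave a detection on every type H array and on type L arrays 2 and 3. Its summed signal was 7.89, 6.77 and 5.77 on type H arrays 1, 2 and 3, and 3.87, 3.92 and 3.75 on type L arrays 1, 2 and 3. Type L array 1, where the miRNA is flagged as not detected, had a signal close to those of the other 2 type L arrays. The type H mean was 6.81 ± 1.06 (SD, n = 3) and the type L mean 3.85 ± 0.086 (SD, n = 3). The summed signal on type L array 1 was 3.36 times its error and was reached by 7 of the other miRNAs not detected there (0.442%).

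After quantile normalization miR-145a-5p stood at a log2 signal of 2.98 ± 0.051 for type H ECs (SD, n = 3) and 1.77 ± 0.033 for type L ECs (SD, n = 3). The fitted log2 difference was 1.21, or 2.31-fold, with a standard error of 0.038 and an adjusted p of 4.6e-06 from limma. MiR-145a-5p was among the 311 tested only through its detection throughout type H ECs, the cell type where it was higher, and its type L level, detected on 2 of 3 arrays, lay near the limit, so neither the size nor the p carries the weight of those of miR-143-3p. The exact two-sided permutation test again gave p = 0.10. With 75th percentile scaling the log2 difference was 0.71 (1.64-fold).

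The probes of miR-145a-5p differed in how well they cleared their error. The software's detection flag was found to equal, for all 11286 combinations of a miRNA and an array, whether any probe of the miRNA was over 3 times its error. On the type H arrays both probes were over that limit, the 13-base probe at 3.11 to 3.74 times its error and the 14-base probe at 4.63 to 5.45 times. On the type L arrays the 13-base probe was under it throughout, at 1.57 to 1.99 times its error, and the 14-base probe stood at 2.76, 3.65 and 3.23 times on arrays 1, 2 and 3. The absence of a flag on type L array 1 thus came from a probe just under the limit. Of its 30 spots, 16, 14 and 11 were well above background on type H arrays 1, 2 and 3, against 0, 3 and 1 on type L arrays 1, 2 and 3. The log2 difference of the 14-base probe without normalization was 0.77, and none is given for the 13-base probe, of which 0 spots were well above background on the type L arrays.

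**Figure D2:**
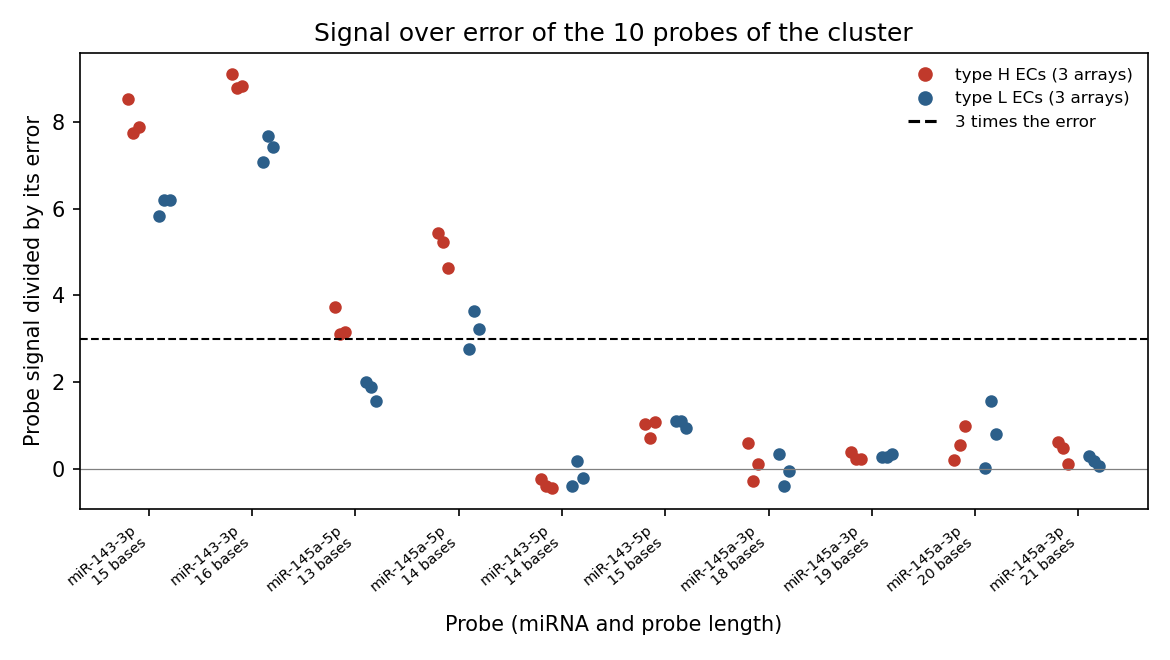
Signal of each of the 10 probes of the cluster divided by the error the scanner software gives for it, with 1 point per array, for type H and type L ECs; the dashed line marks 3 times the error. The probes of miR-143-3p lie between 5.82 and 9.12, the 13-base probe of miR-145a-5p falls under the line on all 3 type L arrays, and no probe of a passenger arm reaches it.

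Since both guide arms come from 1 transcript, their changes were set side by side. Without normalization both log2 differences were 0.81, and after 75th percentile scaling both were 0.71. The signal of miR-143-3p divided by that of miR-145a-5p was 3.57 ± 0.242 (SD, n = 3) on type H arrays and 3.57 ± 0.216 (SD, n = 3) on type L arrays. This ratio reads the brightness of different probes and gives no relative abundance. Its means differed between cell types by less than the spread between arrays. With quantile normalization the changes were 1.10 and 1.21. A test of the difference between the changes had been planned only for detection of both on all 6 arrays and was not run.

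The deposited total of miR-145a-5p was higher on 2 type L arrays than on any type H array. It was 7.89, 6.77 and 5.77 on type H arrays 1, 2 and 3, equal to the sum of its probes, and 0.1, 16.0 and 16.9 on type L arrays 1, 2 and 3. On type L array 1 the value 0.1 is the one given to every miRNA not detected. On type L arrays 2 and 3 only 2.63 and 2.56 came from a probe of miR-145a-5p, the 14-base probe, and the remaining 13.4 and 14.3 equalled the total of miR-143-3p on the same array, which precedes it among the detected miRNAs sorted by name. The borrowed signal was 83.5 and 84.8% of the deposited total. The total of miR-143-3p held its own probes alone on all 6 arrays.

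**Figure D3:**
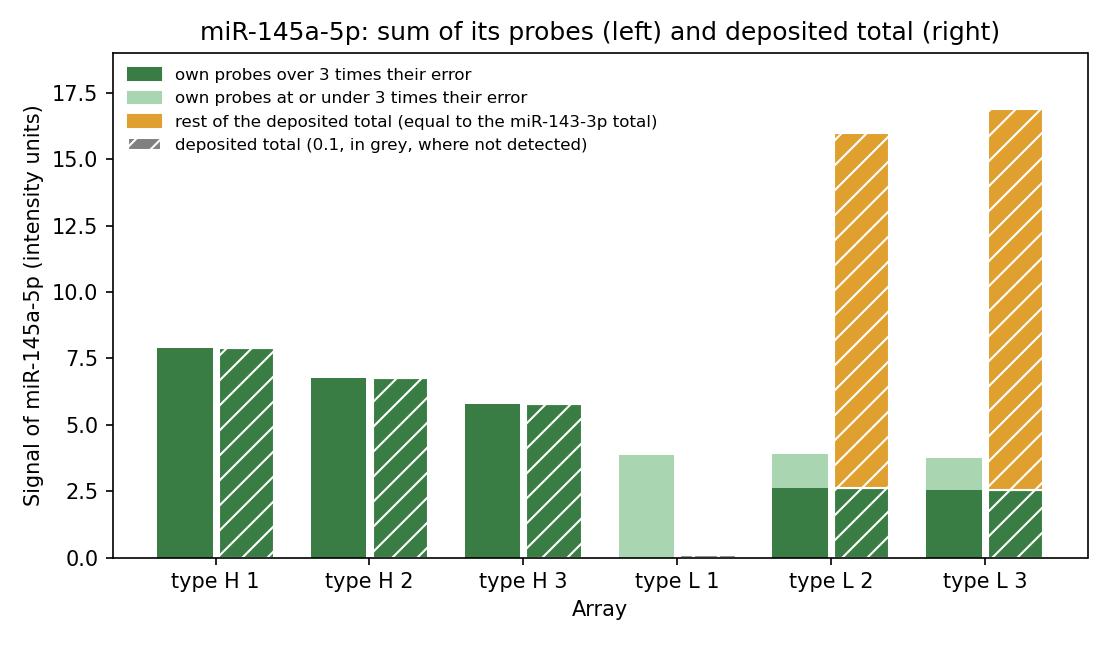
Signal of miR-145a-5p on each array in intensity units, with the sum of its own probes at left, split by whether a probe was over 3 times its error, and the deposited total at right. The deposited totals of 16.0 and 16.9 on type L arrays 2 and 3 stand above every type H array, while the sums of its own probes are 3.92 and 3.75.

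Across all miRNAs such an excess was found only where a probe had failed the limit. Among the 494 detections with a probe at or under 3 times its error, 458 had a deposited total above the own part, and among the 1216 detections with all probes over it, 0 had. MiR-145a-5p had a probe under the limit on the type L arrays and on none of the type H arrays.

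The totals as deposited, the own probes over 3 times their error and the authors' log2 table moved miR-145a-5p and left miR-143-3p nearly in place. Normexp background correction, by contrast, lowered both, to 0.46 for miR-143-3p and 0.18 for miR-145a-5p. With the totals as deposited, limma gave miR-145a-5p a log2 difference of 0.47 with a standard error of 1.17 and an adjusted p of 0.74, not past the threshold. With the own probes over 3 times their error it was 2.75 (adjusted p = 1.2e-05 from limma), where a probe under that limit counts as 0. In the authors' log2 table, where the miRNA stands at 2.98, 3.04 and 2.92 in type H ECs and at -3.31, -0.98 and -0.97 in type L ECs, it was 4.74 (adjusted p = 0.0019 from limma). The mean processed signal of its spots, which uses no detection flag, gave 1.19 (adjusted p = 7.6e-06 from limma). Under the same choices miR-143-3p gave 1.16, 1.10, 1.10 and 1.12.

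**Figure D4:**
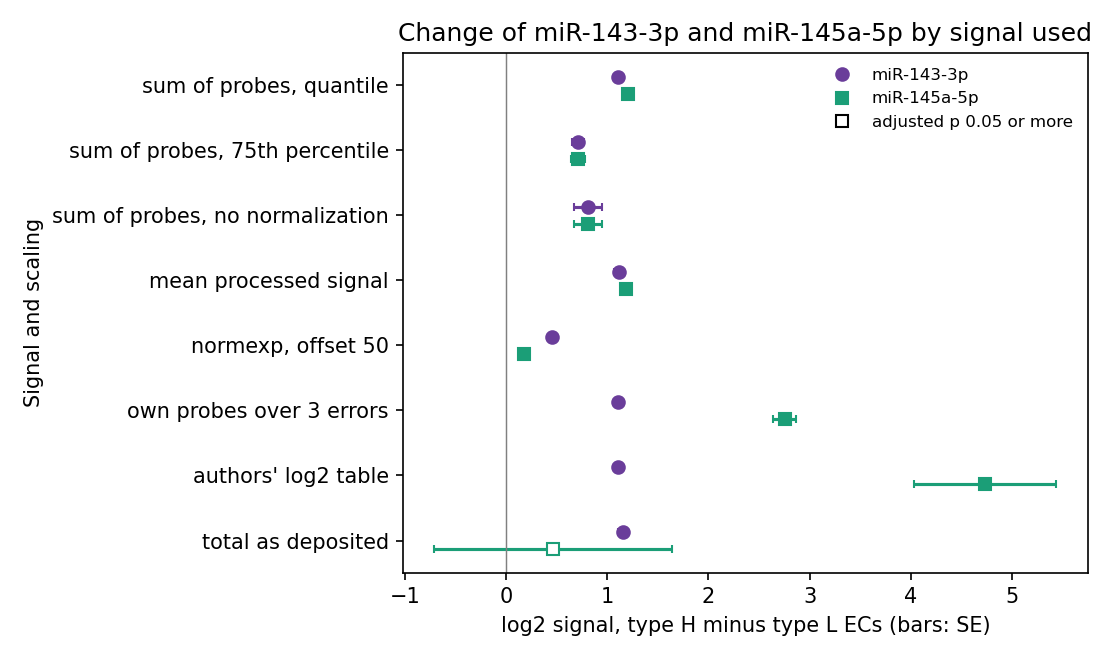
Log2 difference between type H and type L ECs for miR-143-3p and miR-145a-5p under 8 choices of signal and scaling, with standard errors from limma as bars; an open symbol has an adjusted p of 0.05 or more. MiR-143-3p lies between 0.46 and 1.16 and miR-145a-5p between 0.18 and 4.74, with the totals as deposited the only open symbol.

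The passenger arms gave no measurable signal. The summed signal of miR-143-5p was 0.604, 0.233 and 0.442 on type H arrays 1, 2 and 3 and 0.572, 0.870 and 0.554 on type L arrays 1, 2 and 3, each smaller than its own error. That of miR-145a-3p, read through 4 probes, was 0.331 to 0.683 on the type H arrays and 0.378 to 0.517 on the type L arrays. The values of both arms overlapped between cell types, and no difference was detectable at this signal. Over all arrays 0 spots of miR-143-5p and 1 spot of miR-145a-3p, on type L array 2, were well above background. The like-named miR-145b, which comes from another gene, was also detected on 0 arrays.

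The cluster was then set beside other miRNAs known for the state of smooth muscle. Of the 3 listed contractile miRNAs besides the cluster, miR-1a-3p, miR-133a-3p and miR-133b-3p, 0 were detected on any array. With negative values counted as 0, their summed signal was 2.61 to 3.01 on type H arrays and 0.326 to 0.738 on type L arrays. This sum of miRNAs not detected was not tested. Of 7 miRNAs known from proliferating or synthetic smooth muscle, 6 were detected on all 6 arrays, and miR-146a-5p, a brake on NF-kappaB signalling, was detected on none. Among the 6 tested, 2 were higher in type H ECs, 1 was lower and 3 were not past the threshold, where 44.7% of all 311 tested were higher, 42.1% lower and 86.8% past it either way. The median log2 difference was -0.02 against 0.03 over all 311. MiR-24-3p rose by 0.49 (standard error 0.032, adjusted p = 3.5e-05 from limma). MiR-26a-5p, which acts on SMAD signalling, and miR-31-5p stood at -0.04 and -0.03 and miR-21a-5p at 0, all with no call. MiR-21a-5p held the same rank on every array, so quantile normalization gives it one value throughout, and without normalization it was 0.37 higher (adjusted p = 0.012 from limma). After 75th percentile scaling all 6 were past the threshold, 3 higher and 3 lower, against 31.5% higher and 56.6% lower over all tested. MiR-143-3p rose by more than any of the 6 under either scaling. So did miR-145a-5p, but it was tested only through its detection throughout type H ECs, where it was higher.

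MiR-221-3p and miR-222-3p, which hold down Kit and p27 in vascular cells, are shown with their sequences because they share a seed and went opposite ways. From RefSeq (GRCm38.p6), 5′ to 3′ with the seed, bases 2 to 8, in capitals, they read
miR-221-3p: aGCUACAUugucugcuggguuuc
miR-222-3p: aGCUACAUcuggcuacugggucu
In type H ECs miR-221-3p rose by 0.73 (standard error 0.053, adjusted p = 5.1e-05, limma) and miR-222-3p fell by 0.35 (standard error 0.057, adjusted p = 0.0017, limma). After 75th percentile scaling these were 0.42 and -0.73.

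**Figure D5:**
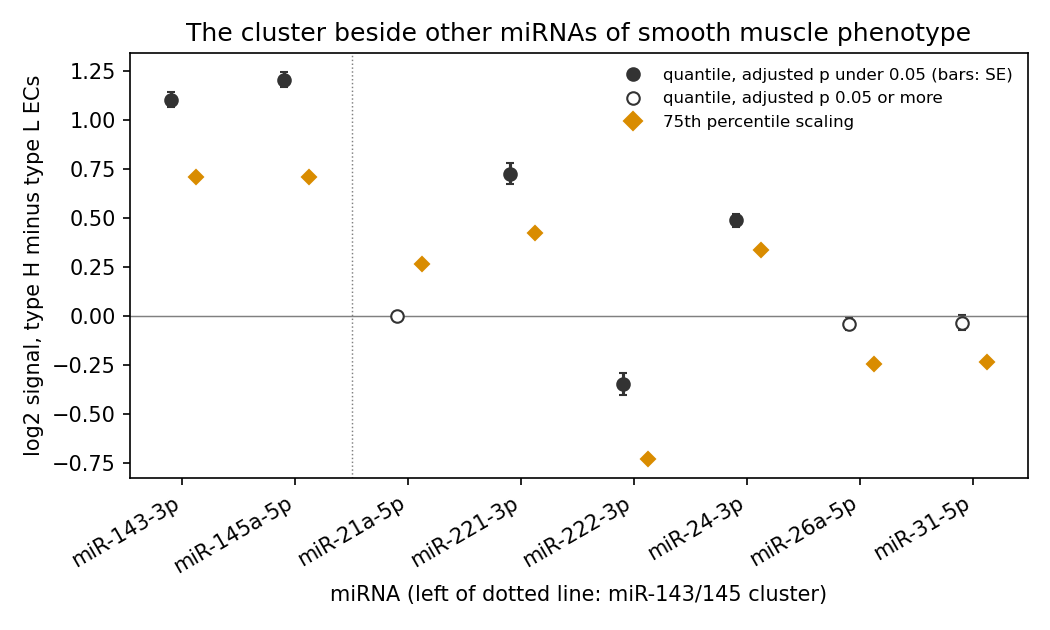
Log2 difference between type H and type L ECs for the 2 guide arms of the cluster and the 6 tested miRNAs of smooth muscle phenotype, after quantile normalization (circles with standard errors from limma, open where the adjusted p was 0.05 or more) and after 75th percentile scaling (diamonds). The guide arms stand at 1.10 and 1.21 and the others between -0.35 and 0.73 after quantile normalization.

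Other cell type markers were measured on the same arrays. All 5 of the mesenchymal miRNAs on the array besides the cluster (arms of miR-199a, miR-199b and miR-214) were detected on all 6 arrays, with a summed signal of 796 to 1015 on the type H arrays and 693 to 798 on the type L arrays, so the ranges overlapped. Of these 5, 2 rose, miR-214-3p by 0.64 (adjusted p = 2.2e-05) and miR-199a-5p by 0.31 (adjusted p = 0.00039, both from limma), and 3 were not past the threshold. This share stands near the 44.7% of all 311 miRNAs that were higher in type H ECs. The 6 haematopoietic miRNAs, among them miR-223-3p, miR-451a and both arms of miR-142a, were detected on 0 arrays. With negative values counted as 0, their summed signal was 5.67 to 7.36 on type H arrays and 3.13 to 3.74 on type L arrays. The 6 epithelial miRNAs, of the miR-200 family and miR-203, were also detected on 0 arrays. Their summed signal, counted likewise, was 0.425 to 0.595 on the type H arrays and 0.205 to 1.70 on the type L arrays, so the ranges overlapped. The summed signal of both miR-126a arms was 2.49 to 4.74 on the type H arrays and 0.107 to 0.666 on the type L arrays. Negative values again counted as 0 in it. The haematopoietic, epithelial and miR-126a sums come from miRNAs not detected on any array and were not tested. The part of cells other than ECs in the signal of the cluster was not tested.

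The miRNAs whose profile over the 6 arrays was most like that of miR-143-3p were found by the root mean square distance between log2 profiles, each centred on its own mean, among 230 other miRNAs detected on all arrays. The nearest 5 were miR-467d-3p (0.024), miR-19b-3p (0.029), miR-301a-3p (0.035), miR-92a-3p (0.061) and miR-324-5p (0.071). Their log2 differences between cell types were 1.09 to 1.13, against 1.10 for miR-143-3p. The choice by profile over both cell types builds this likeness in. With these quantile-normalized profiles miR-145a-5p was at a distance of 0.073, farther than these 5, and the median distance of the 230 was 0.52. Distances were not computed under other scalings. After 75th percentile scaling both guide arms differed by 0.71 between cell types. The 5 then differed by 0.63 (miR-467d-3p), 1.05 (miR-19b-3p), 0.72 (miR-301a-3p), 0.96 (miR-92a-3p) and 0.71 (miR-324-5p). With the totals as deposited miR-467d-3p turned to -0.31 with no call.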

How the data were processed

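Each of the 6 samples was hybridised to a 1-colour Agilent miRNA array. The authors extracted background-subtracted, detrended spot intensities with Feature Extraction 10.7.1.1 and deposited them without normalization between arrays. The authors also deposited a log2 table, quantile-normalized per the methods. In it miRNAs not detected stand near -3.3, close to the log2 of the 0.1 that their deposited totals hold. The column medians of this table were -3.30, -3.26 and -3.26 for type H arrays 1, 2 and 3 and -3.31, -3.32 and -3.32 for type L arrays 1, 2 and 3.

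The total signals of a miRNA's distinct probes were summed, quantile-normalized over the 1881 miRNAs, set to 1 where under 1 and log2-transformed. As in the methods, a miRNA was kept if it was detected throughout at least 1 cell type. The comparison used limma 3.58.1 (lmFit and eBayes, R 4.3.3) with Benjamini-Hochberg adjustment over all 311, at a threshold of 0.05. The statistics section names Student's t-test, which was run as an alternative. In simulated data for this comparison (311 miRNAs, 60 given a log2 change of 1), 60 of the changed and 3 of the unchanged miRNAs were called. The simulation drew independent values with no slide effect and no normalization step, so it checks the fit alone. The number of arrays limits the precision. The limma p-values rest on the spread between these samples after normalization, which limma shares over miRNAs, and not on that of a single miRNA alone.

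The cluster, the lists and the tests were chosen with earlier results of these data known. Named were the 4 members, the miRNA whose signal a member's deposited total held, the smooth muscle list, miR-145b, markers by list and the 5 profiles nearest to each member detected on all 6 arrays. MiR-221-3p and miR-222-3p were singled out for their sequences after their values were seen. Listed names were matched to the array through the older names in its annotation, and RefSeq held the 2 sequences printed. Of the listed endothelial names, both current and older forms of miR-126a met the same 2 array names.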

Additional observations from a re-analysis of the deposited data

How the results depend on the processing

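MiR-143-3p was past the threshold under all 19 alternatives, with log2 differences of 0.46 to 1.16 and adjusted p of 5.3e-13 to 0.00021 from limma or the t-test. The lowest p came from the 75th percentile over all miRNAs, where limma gave both guide arms the same standard error, 0.110. Without normalization it was also the same for both, 0.139. These p-values thus do not measure the spread of the single miRNA. MiR-145a-5p was past the threshold under 17 of the 18 alternatives that tested it, the exception being the totals as deposited (0.47, adjusted p = 0.74 from limma). The main filter admitted it only through type H ECs, where it was higher, and the alternatives reuse the same arrays, so this count is no independent support. In the authors' log2 table type L array 1 held the value of a miRNA not detected. With own probes over 3 times their error, failed probes counted as 0. Normexp background correction, whose offset of 50 draws the folds of dim miRNAs towards 1, gave the lowest values, 0.46 and 0.18. The filter of detection on all 6 arrays did not admit miR-145a-5p. Leaving out single arrays, miR-143-3p ranged from 1.07 to 1.13, miR-145a-5p from 1.19 to 1.23, the miRNAs past the threshold from 261 to 272 and those of the smooth muscle list from 3 to 3. Without a filter 413 miRNAs were past the threshold of 1881 tested, where most variances are 0 and limma's fit is unreliable. With the 75th percentile of miRNAs detected throughout, 6 of the smooth muscle list were past it, against 3, and the cause was not tested. MiR-467d-3p turned to -0.31 with the totals as deposited. Own probes over 3 times their error were added as a signal after the data had been seen. A 75th percentile over all miRNAs gave 0.81 for both guide arms, as no normalization did.

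The replicate numbers 1 to 3 recur in both cell types, and the samples were not treated as pairs. The deviations of arrays that share a number correlated at -0.0055, -0.025 and 0.12. Those of arrays with different numbers correlated at -0.10 to 0.11. With 3 arrays of each cell type these values cannot settle whether the samples were paired. The replicate block left the log2 differences at 1.10 and 1.21, and 262 miRNAs and 3 of the smooth muscle list passed the threshold. Slide could not be fitted apart from cell type. The passenger arms, at or below their error on every array, allow no statement on a change.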

Other observations

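MiR-206-3p, a muscle miRNA, was detected on all 6 arrays, with a summed signal of 72.9 to 90.7 on the type H arrays and 49.6 to 53.9 on the type L arrays. It was higher in type H ECs by 0.62 on the log2 scale (standard error 0.053, adjusted p = 0.0001 from limma), as were 44.7% of the 311 tested. After 75th percentile scaling its log2 difference was 0.52. MiR-1a-3p, miR-133a-3p and miR-133b-3p, the other miRNAs listed for striated muscle, were detected on 0 arrays.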
